A study of Mus musculus with 4 samples.

Results

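The nuclear genes for subunits of respiratory complex I were followed through the cell groups of the gingiva, or gum, of mice. Members were taken by symbol, as those that begin with Ndufa, Ndufb, Ndufc, Ndufs or Ndufv followed by a number, together with Ndufab1. Ndufaf assembly factors and pseudogenes were left out. The rule took 38 of 32245 gene symbols. Single-cell RNA was counted in 4 libraries from excised gingiva of the upper jaw, labelled healthy, metformin, disease, and disease treated with metformin. Each group was 1 library, so differences between conditions have no replicate check. The study asked how metformin, a glucose-lowering drug for which complex I is a proposed target, acts on gingiva in relation to gum disease. The strain, age and number of mice, the dose of metformin and the way disease was induced are not given in the sources used here.

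Complex I is the NADH dehydrogenase of the inner mitochondrial membrane. Its peripheral arm oxidises NADH and passes electrons over iron-sulfur clusters to ubiquinone, and its membrane arm pumps protons. The catalytic core is built from 7 nuclear genes, among them Ndufv1, Ndufv2 and Ndufs1, and from 7 genes of mitochondrial DNA. Among the members, 9 accessory subunits belong to the peripheral arm and 19 to the membrane arm. Ndufab1 is the mitochondrial acyl carrier protein. Ndufa4 was long counted with complex I and is now placed in complex IV, and Ndufa4l2 is its paralog, known as a gene induced by low oxygen. In oral epithelium, basal keratinocytes divide and the layers above them differentiate, while gland cells make and secrete large amounts of protein.

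In all, 7125 cells were kept (1307 healthy, 2473 metformin, 1692 disease and 1653 disease plus metformin), and the libraries held 12507787 to 22333858 UMIs. A UMI, or unique molecular identifier, marks 1 RNA molecule. The libraries shared 0 to 4 cell barcodes with each other. Doublet calling marked 9 of 7134 cells (0.126%) and is taken not to have worked, so doublets remain. The members took up 526664 UMIs of the kept cells, from 1668 to 51064 for single members, and all 38 were found in every library. A level below is the UMIs of a gene or list per 1000000 UMIs of the summed cells (CPM), so levels of different genes are not compared with each other. Cell groups are clusters named "-like" from marker genes, respiratory chain genes were left out of the clustering, and every interval is a 95% interval that covers counting error only. Where a few barcodes dominate a sum, such an interval is narrower than the true error.

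All 38 members were matched to a position, on 15 chromosomes. Ndufs8 (chromosome 19, 3908863 to 3912774) and Ndufv1 (chromosome 19, 4007499 to 4012755) are near neighbours. RefSeq (GRCm38.p6) gave the start region for 33 of them. Windows from 250 bases before to 50 after the start were searched on both strands for 3 sets of letters linked to factors of mitochondrial gene control. The NRF1 letters GCATGCGC were found in 3 of the 33 members (9.09%) and in 824 of 27025 genes (3.05%). The YY1 letters AAGATGGC were found in 7 members (21.2%), Ndufa3, Ndufa9, Ndufb8, Ndufc1, Ndufs4, Ndufs6 and Ndufs7, and in 3.19% of all genes. The ETS letters CCGGAAGT were found in 1 member, Ndufs3 (3.03%), and in 4.31% of all genes. A match in letters is not a binding site, and no match says nothing of the factor. The 100 bases before the start are printed 5′ to 3′ for the 3 members with the NRF1 letters, which stand in capitals. In Ndufa11 they occur on both strands and overlap. They are followed by Ndufv1 and Ndufv3, which code for subunits of the same NADH-binding module and differ in opposite directions between gland-like and keratinocyte-like cells below.
Ndufa6, chr15:82354292-82354391, minus strand: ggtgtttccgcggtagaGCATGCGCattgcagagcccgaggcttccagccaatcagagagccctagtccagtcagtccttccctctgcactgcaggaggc
Ndufa8, chr2:36049339-36049438, minus strand: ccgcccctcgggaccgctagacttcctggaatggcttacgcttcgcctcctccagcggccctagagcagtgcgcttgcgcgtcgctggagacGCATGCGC
Ndufa11, chr17:56717662-56717761, plus strand: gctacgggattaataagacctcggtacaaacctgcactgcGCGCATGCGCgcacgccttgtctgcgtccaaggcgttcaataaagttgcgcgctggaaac
Ndufv1, chr19:4012756-4012855, minus strand: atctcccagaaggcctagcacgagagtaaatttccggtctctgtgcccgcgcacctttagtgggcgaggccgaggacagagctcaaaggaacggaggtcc
Ndufv3, chr17:31520015-31520114, plus strand: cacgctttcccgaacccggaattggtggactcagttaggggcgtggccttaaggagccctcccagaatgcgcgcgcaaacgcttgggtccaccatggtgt

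Summed over the 38 members, complex I RNA lay at about the same level in the 6 larger keratinocyte-like clusters and varied widely among gland cells and stroma. These 6 clusters held 9447 to 11679 CPM with libraries pooled, a range of 1.24-fold. Smaller keratinocyte-like clusters of 57 and 20 cells enter the class sums but are left out wherever single clusters are compared. Adding the 57-cell cluster lowered the soft-mucosa level in each library. In the healthy, metformin, disease and disease plus metformin libraries it was 8498, 10763, 8324.5 and 9750 CPM with that cluster. Without it, the values were 9343, 11090, 9446 and 10619 CPM. Cycling keratinocyte-like cells were at 11704, 11494, 12241 and 11412 CPM in the healthy, metformin, disease and disease plus metformin libraries. In the same order, the keratinized cluster was at 10073, 10277, 10633 and 11114 CPM. The small basal cluster was at 10091, 10144, 10027 and 9633 CPM. Cycling cells were above both of these clusters in each library, and the other values of the 6 clusters lay between 8966 and 11090 CPM.

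Among gland-like cells the spread was wider. The cluster led by Spink4 was at 12079, 12435, 12582 and 11905 CPM (mean 12250 ± 312, SD, n = 4 libraries). The gland-like cluster led by Ptprn2, a protein of secretory granules, was at 3857, 4627, 6035 and 4383 CPM (mean 4725 ± 930, SD, n = 4 libraries). Its highest library lay below the lowest of each of the 6 larger keratinocyte-like clusters. The smaller ones left out above are not part of this comparison. The gland-like cluster led by Ltf was at 9123, 11150, 11914 and 9933 CPM, although 1 barcode held up to 67.1% of the complex I UMIs of a library there. The small Smgc cluster was at 9241, 10872, 13408 and 9358 CPM. The Sbpl cluster was at 7067, 13101 and 11981 CPM in the 3 libraries that held it, and had no cell in the disease library.

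Stromal and blood cells were lower, apart from pericytes. Pericyte or smooth muscle-like cells, the contractile cells of vessel walls, were at 11477, 13212 and 11014 CPM in the healthy, metformin and disease libraries, from 12 to 17 cells each. Blood endothelial-like cells were at 5823, 7018, 7246 and 6929 CPM, and leukocyte-like cells at 5288, 4883, 6185 and 6272 CPM. The values of these 2 groups overlapped, and none reached the lowest value of the 6 larger keratinocyte-like clusters. Fibroblast-like cells were at 10550, 6640, 5912 and 7458 CPM, where 1 healthy barcode held 64.4% of that library's complex I UMIs. Erythroid-like cells, which lose their mitochondria as they mature, were at 696, 683, 461 and 925 CPM.

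**Figure D1:**
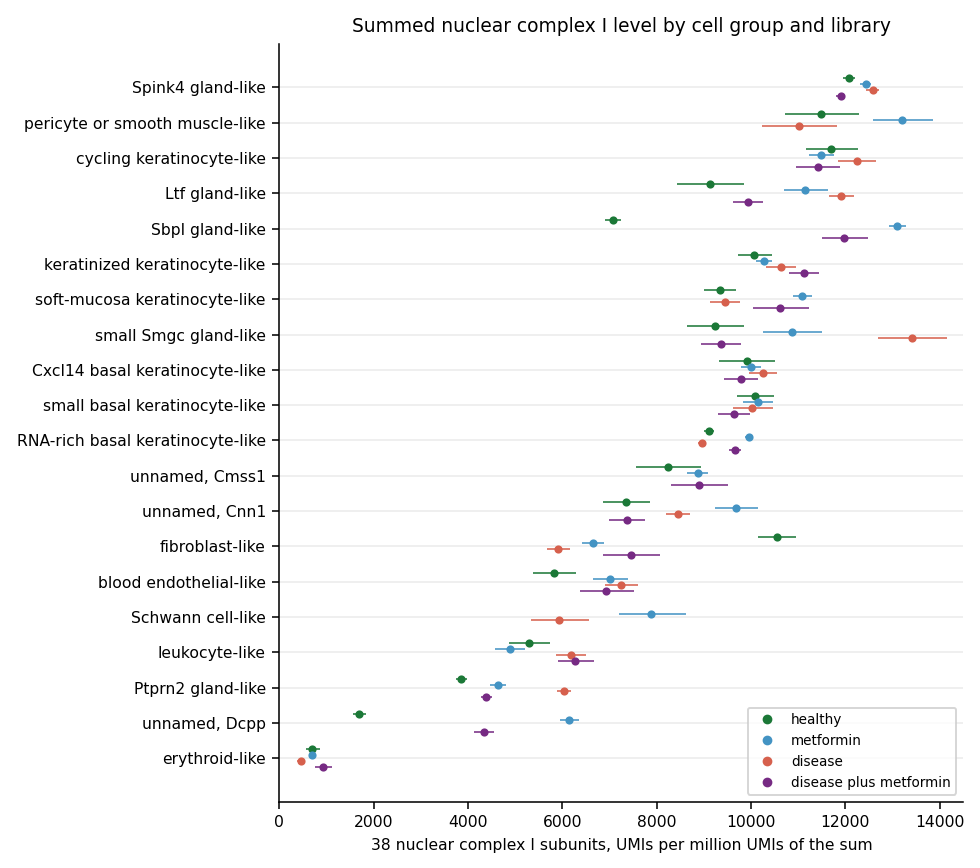
Summed level of the 38 members (x axis, UMIs per 1000000 UMIs of the summed cells) in 20 cell groups (y axis), with 1 point per library of at least 10 cells and lines for the 95% counting interval. The Spink4 gland-like points sit between 11905 and 12582, the Ptprn2 gland-like points between 3857 and 6035, and the erythroid-like points between 461 and 925.

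In the 6 larger keratinocyte-like clusters, the nuclear genes did not follow the share of RNA read from mitochondrial DNA. Over these 6 clusters and 4 libraries, that share ran from 0.0386% to 4.85% of UMIs, a 126-fold range, while the summed nuclear level stayed between 8966 and 12241 CPM. The soft-mucosa cluster of 57 cells is outside these ranges. Adding it to the larger one raised the share from 1.73% to 3.28% in healthy gingiva. It lowered the nuclear level from 9343 to 8498 CPM there, and the other libraries moved the same ways. Keratinocyte-like barcodes with no mitochondrial UMI (316, 587, 334 and 413 cells) held 10471, 10324, 10362 and 10459 CPM of the nuclear members. Those with at least 1 (375, 615, 749 and 282 cells) held 9119, 10155, 9192 and 9813 CPM, less in each of the 4 libraries, but they include every barcode of an RNA-rich basal cluster. Per nuclear UMI, the metformin library had the opposite order, 10482 with and 10324 without mitochondrial UMIs. Within clusters the order went both ways, as in the keratinized cluster, where barcodes with mitochondrial UMIs were at 9834 against 10298 CPM in healthy and at 11629 against 10651 CPM in disease plus metformin gingiva. In gland-like cells the order of these barcodes went both ways. Those with mitochondrial UMIs were at 9003, 11744, 11005 and 10455 CPM. Those without, only 27, 39, 20 and 56 cells, were at 12763, 9672, 13295 and 9798.5 CPM. Between the Ptprn2 and Spink4 gland-like clusters, nuclear and mitochondrial levels went opposite ways. The Ptprn2 cluster had the most mitochondrial RNA of the groups given here, 6.47% to 8.19% of UMIs. It held 20808, 18397, 16173 and 19058 CPM of mitochondrially encoded complex I. The Spink4 cluster had 9588, 7360, 8012 and 7607 CPM of the same genes. Its nuclear members were higher than in the Ptprn2 cluster in 4 of 4 libraries, and its mitochondrially encoded complex I genes were lower in 4 of 4. The clusters were drawn from these cells after their values were seen, so no test is given.

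**Figure D2:**
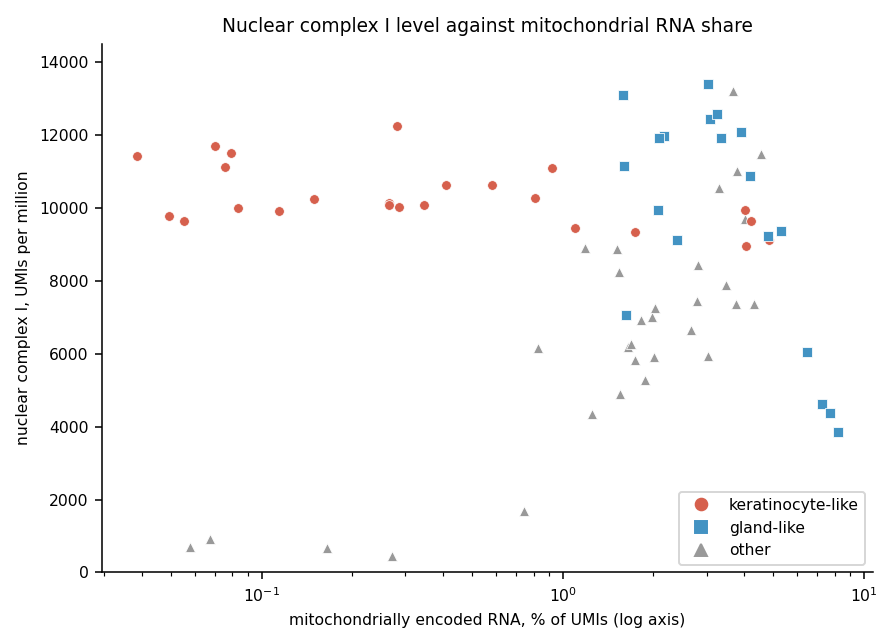
Summed level of the 38 members (y axis, UMIs per 1000000) against the share of UMIs from mitochondrial DNA (x axis, percent, log axis), with 1 point per cluster or cell type and library of at least 10 cells, coloured by class. Points of the 6 larger keratinocyte-like clusters span 0.0386% to 4.85% on the x axis at 8966 to 12241 on the y axis. The 4 gland-like points at the lower right, 3857 to 6035, are the Ptprn2 cluster.

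The make-up of the complex I RNA differed between gland and keratinocytes more clearly than its sum. The 7 catalytic core genes gave 6.30% ± 0.213 of the members' UMIs in gland-like cells and 9.93% ± 0.147 in keratinocyte-like cells (SD, n = 4 libraries). The share was lower in gland-like cells in 4 of 4 libraries (exact two-sided permutation test over the 4 pairs, p = 0.125, the smallest that 4 pairs allow). Cluster by cluster, the core share was 4.88% to 8.24% in 19 gland-like values. It was 8.68% to 14.6% in 24 values of the 6 larger keratinocyte-like clusters, and these ranges did not overlap. The same ranges overlapped for the peripheral arm (22.1% to 26.9% and 19.1% to 22.6%) and the membrane arm (52.7% to 57.7% and 55.7% to 60.5%). Clusters of the same library are not independent values. Accessory subunits of the peripheral arm gave 24.3% ± 0.577 in gland-like and 21.8% ± 0.402 in keratinocyte-like cells (SD, n = 4 libraries). Those of the membrane arm gave 55.1% ± 0.494 and 57.0% ± 0.442 (SD, n = 4 libraries). Ndufa4 alone gave 12.3% ± 0.278 of the UMIs in gland-like cells and 7.66% ± 0.472 in keratinocyte-like cells (SD, n = 4 libraries). For each of these 3 shares the 4 libraries moved in 1 direction, and the exact permutation test again gave p = 0.125, its smallest value. With 5 shares tested (Ndufa4l2 was the fifth), no adjusted value can fall below this one.

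Gene by gene, the 4 libraries served as replicates of a cell class in edgeR's quasi-likelihood test, with a term for the library and Benjamini-Hochberg adjustment over 12828 genes. The libraries are the 4 conditions, so the spread behind these p-values is how far the class difference varies between conditions. Nothing here separates it from the spread between mice. The test also draws the spread of each gene toward that of all genes. At an adjusted p under 0.05, 15 of 38 members were higher and 5 lower in gland-like than in keratinocyte-like cells, where 35.9% of all genes tested were higher and 36.8% lower. The share of members called higher was near that of all genes, and the share called lower was below it. Their median log2 fold change was 0.13, and that of all genes -0.05. The balance depended on the scale: with library totals and no factor it was 7 higher and 13 lower (27% and 45.5% of all genes), and the median of all genes moved to -0.35. It depended also on the RNA-rich basal cluster, which held 58.1% to 74.5% of the keratinocyte-like UMIs from 6.04% to 12.9% of the cells. Without it, 3 members were higher and 28 lower, where 37.3% of all genes were higher and 33.6% lower.

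Several members kept their call and direction in each of 14 fits (other scaling, filters, clusterings, cell filters, libraries left out, and DESeq2). The share of all genes that did so was not computed. The higher ones were Ndufa1, Ndufv3 and Ndufa4. Ndufa1, a small membrane arm subunit, was at 624, 802, 643 and 667 CPM in gland-like cells and at 257, 306, 270 and 325 CPM in keratinocyte-like cells. Its libraries did not overlap between the classes (log2 fold change 1.55 ± 0.13 SE, edgeR quasi-likelihood test, adjusted p = 4.03e-06). Ndufv3, an accessory subunit of the NADH-binding module, was at 354, 518, 445 and 394 CPM against 209, 251, 236 and 216 CPM, again without overlap (log2 fold change 1.21 ± 0.11 SE, edgeR, adjusted p = 6.78e-06). Ndufa4 was at 1070, 1438, 1372 and 1300 CPM against 765, 727, 695 and 775 CPM (log2 fold change 1.11 ± 0.13 SE, edgeR, adjusted p = 4.32e-05). Ndufa7, a peripheral arm subunit, had the fourth highest fold change, 1.07, with 4 of 4 libraries higher, but not every fit called it.

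Among the lower ones were Ndufv1, Ndufa10 and Ndufa4l2. Ndufv1, the core subunit that binds NADH and flavin, was at 61.9, 80.1, 64.4 and 68.6 CPM in gland-like cells. In keratinocyte-like cells it was at 146, 151, 147 and 150 CPM, so the classes lay far apart against a small spread (log2 fold change -0.81 ± 0.09 SE, edgeR, adjusted p = 2.83e-05). Ndufa10, a membrane arm subunit, was at 65.5, 80.3, 80.8 and 70.1 CPM against 148, 141, 129 and 122 CPM (log2 fold change -0.56 ± 0.10 SE, edgeR, adjusted p = 0.000778). Over the 14 fits, the fold change of Ndufv1 ran from -2.09 to -0.49 and that of Ndufv3 from 0.32 to 1.36. Another 15 members were called higher in some fits and lower in others.

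Of all genes tested in the main fit, 35.9% were higher and 36.8% lower, and no list below was tested against these shares. By role, 0 of the 7 core genes were higher and 3 lower, with a median log2 fold change of -0.23. Ndufv2, the iron-sulfur partner of Ndufv1, was among the lower ones (-0.31, edgeR, adjusted p = 0.0263). Other core values were -0.23 for Ndufs1, -0.17 for Ndufs8, 0.05 for Ndufs3 and 0.12 for Ndufs7, none past the threshold. By CPM these 4 genes were lower in gland-like cells in 4 of 4 libraries. Of the 9 peripheral arm accessory genes, 5 were higher and 0 lower (median 0.30). Of the 19 membrane arm genes, 9 were higher and 1 lower (median 0.29). Beside them, 7 of 7 mitochondrially encoded complex I genes were higher (median 0.84), while nuclear complex III (2 higher, 3 lower of 9), complex IV (5 and 3 of 12 tested) and complex V (5 and 5 of 18) went both ways. Without the RNA-rich cluster, the core had 0 higher and 6 lower, and the membrane arm 1 higher and 15 lower, beside the 37.3% and 33.6% of all genes in that fit.

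Between keratinocyte layers, most members were called higher on the fitted scale, and the number called depended on the scale, the clustering and the cells kept. Against basal cells, 35 of 38 members were higher and 0 lower in the differentiated layers, where 27.4% of genes tested were higher and 30.8% lower (median -0.14 for all genes and 0.91 for members). With library totals and no factor, the split was 8 and 6 (9.39% and 57.9% of all genes) and the median of all genes -0.93. With totals that leave out mitochondrial, ribosomal protein and the top 50 genes it was 26 and 3 (13.7% and 50.3%). Without the RNA-rich cluster it was 3 and 9, where 21.6% and 19.6% of all genes were called, so that the share of lower members was near that of all genes. With a finer clustering (Leiden resolution 2) it was 2 and 28 (32.5% and 25%), the opposite direction. In cycling against basal cells, 35 of 38 were higher and 1 lower, where 19.3% of genes were higher and 35.1% lower. Without the factor that split was 22 and 3 (9.19% and 53.3% of all genes), and with the totals without abundant genes 30 and 2 (12.8% and 44.9%). Without the RNA-rich cluster it was 6 and 1 (13.4% and 11.3%), and in barcodes with Malat1 and mitochondrial UMIs 3 and 0 (3.24% and 14.2%). The layers' nuclear and mitochondrial genes parted in the same fits. In differentiated cells 9 of 9 nuclear complex III genes, 11 of 12 tested of complex IV and 18 of 18 of complex V were higher, and 6 of 7 mitochondrially encoded complex I genes lower (median -1.22). In cycling cells 7 of 7 of the latter were lower (median -3.98). Without the RNA-rich cluster the differentiated layers had 6 of 6 tested mitochondrially encoded complex I genes higher, so that this direction also rests on it.

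What held in each of the 14 fits was narrower, and here too the share of all genes that held was not computed. In cycling cells it was Ndufab1, the acyl carrier protein, and the core subunit Ndufv1. Ndufab1 was at 466, 426, 464 and 431 CPM in cycling cells and at 229, 260, 233 and 234 CPM in basal cells (log2 fold change 1.48 ± 0.14 SE, edgeR, adjusted p = 1.25e-24, range over the fits 0.33 to 1.51). Ndufv1 was at 256, 225, 252 and 292 CPM against 133, 132, 133 and 134 CPM (log2 fold change 1.52 ± 0.16 SE, edgeR, adjusted p = 3.74e-21, range 0.42 to 1.56). In the cycling contrast the p-values follow a normal distribution of fold change over SE, so the spread was in effect pooled over genes. They are smaller than the libraries alone could give. In the differentiated layers only Ndufa4l2 held, at 108, 351, 110 and 120 CPM against 104, 66.5, 76.4 and 22.6 CPM in basal cells (log2 fold change 2.14 ± 0.32 SE, edgeR, adjusted p = 5.3e-05, range 0.94 to 2.57). The healthy library showed almost no difference for it and the disease library a small one, while the difference was large in both libraries with metformin.

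The remaining extremes of these contrasts were less steady. In differentiated cells, Ndufv1 (1.31), the peripheral arm subunit Ndufa9 (1.28) and the core subunit Ndufs7 (1.17) followed Ndufa4l2, and the smallest called fold changes were 0.40 for Ndufc2, 0.44 for Ndufa4, 0.53 for Ndufa2 and 0.69 for Ndufb11. By CPM, Ndufc2, Ndufa4 and Ndufa2 were lower in differentiated than in basal cells in 4 of 4 libraries, Ndufa4 at 604, 621, 598 and 606 against 803, 777, 704 and 817 CPM, and Ndufb11 was higher in 1 of 4, so that their positive fold changes rest on the fitted scale. In cycling cells, Ndufs7 (1.27) followed, and the smallest were 0.34 for Ndufa4, 0.51 for Ndufc2 and 0.56 for Ndufb3. By CPM each of these 3 was higher in cycling cells in 1 of 4 libraries, and Ndufa4 was at 538, 560, 844 and 693 CPM there. Ndufs1, an iron-sulfur core subunit, was the 1 member called lower in cycling cells, at 13.1, 14.3, 16.8 and 9.90 CPM against 46.6, 37.5, 48.2 and 36.1 CPM (log2 fold change -0.92 ± 0.36 SE, edgeR, adjusted p = 0.024). That call was lost when the healthy, the disease or the disease plus metformin library was left out, although Ndufs1 was lower in 4 of 4 libraries. Other core genes were also called higher in both contrasts: in cycling cells Ndufs3 (0.87), Ndufs8 (0.99) and Ndufv2 (1.02), and in differentiated cells Ndufs3 (1.02), Ndufs8 (1.02) and Ndufv2 (1.05). Ndufs1 was at -0.31 in differentiated cells and did not pass the test.

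**Figure D3:**
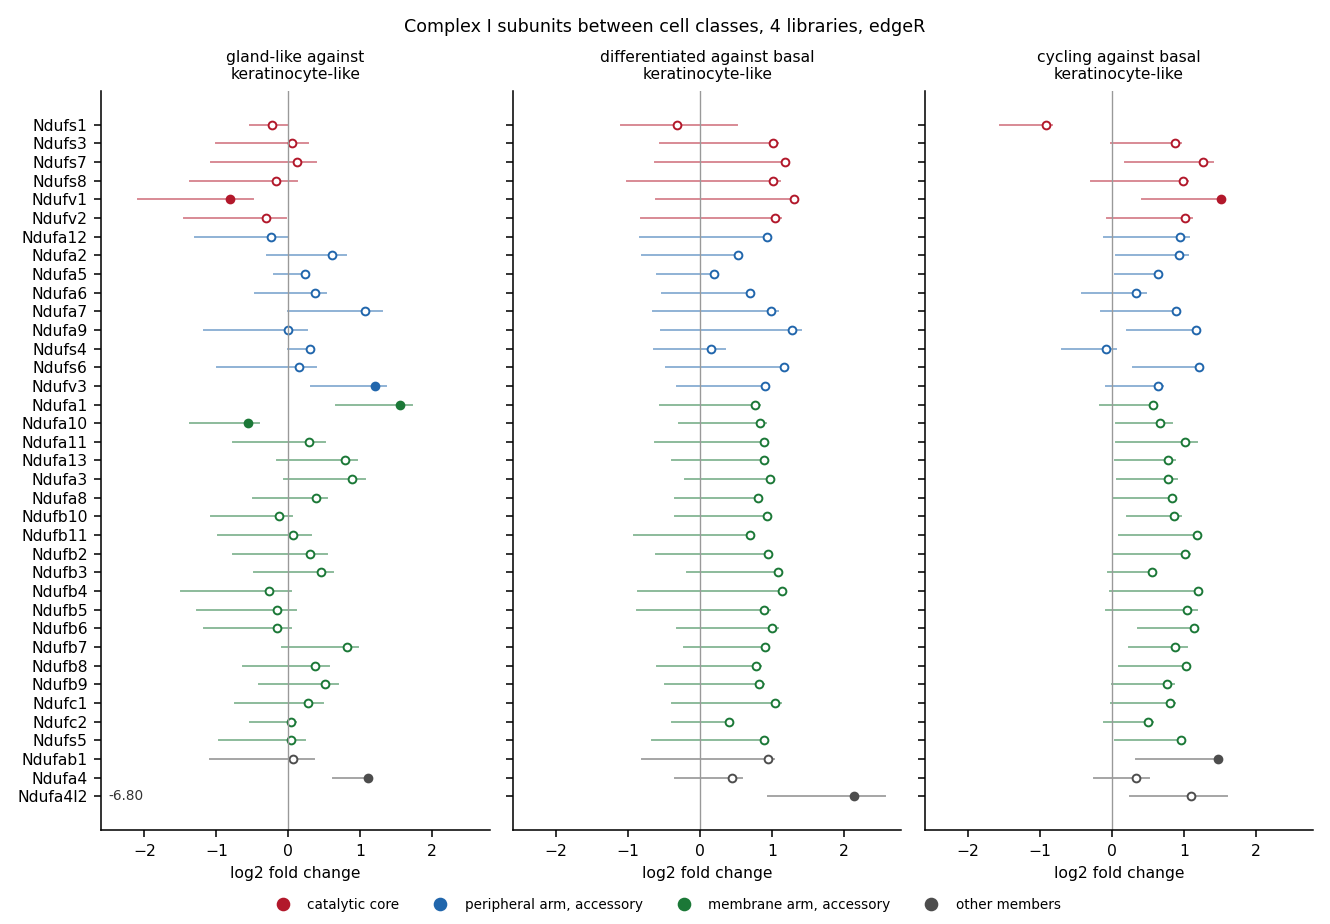
Log2 fold change of 37 members (x axis) in 3 contrasts of cell classes, with 4 libraries as replicates, coloured by role. Circles are edgeR estimates, lines the range over 14 fits, and filled circles the members called in 1 direction in every fit, such as Ndufa1 (1.55) and Ndufv1 (-0.81) on the left, where Ndufa4l2 is off the axis at -6.80.

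Ndufa4 and Ndufa4l2, the pair now tied to complex IV, took opposite places. Ndufa4 was at 1463, 1562, 1566 and 1534 CPM in the Spink4 gland-like cluster, a narrow band, and at 340, 388, 381 and 366 CPM in the Cxcl14 basal cluster. As a share of complex I UMIs, Ndufa4 in that basal cluster lay below its share over the other kept cells of the same library in 4 of 4 libraries (median log2 ratio -1.47). The keratinized cluster was also low, at 476, 531, 541 and 603 CPM. The RNA-rich basal cluster was the highest of the 6 larger keratinocyte-like clusters, with 837, 846, 743 and 920 CPM of Ndufa4. Cycling cells, however, reached 844 CPM in disease.

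Ndufa4l2 was close to missing from gland. Gland-like cells held 0, 12, 2 and 1 UMIs of Ndufa4l2 in the 4 libraries, or 0 to 1.98 CPM, against 480, 1415, 537 and 139 UMIs in keratinocyte-like cells, or 103, 140, 82.2 and 37.7 CPM. The healthy gland-like count of 0 allows up to 0.609 CPM (3 counts). The fitted log2 fold change of -6.80 (edgeR, adjusted p = 7.43e-08) rests on those 15 gland UMIs and depends on the prior count. Leukocyte-like cells held 0 UMIs of Ndufa4l2 in each library, which allows 12.6 to 26.6 CPM.

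The highest levels of Ndufa4l2 were in pericyte or smooth muscle-like cells, at 848 (95% interval 650 to 1087), 298 (210 to 410) and 1064 (834 to 1337) CPM in the healthy, metformin and disease libraries. These rest on 62, 37 and 73 UMIs. The 5 such cells of the disease plus metformin library held 53 UMIs, 52.8% of them in 1 barcode. The soft-mucosa keratinocyte-like cluster came next, at 177, 550, 107 and 278 CPM of Ndufa4l2, and the metformin library was highest there. The 2 groups overlapped, since the metformin value of pericytes lay below that of soft mucosa. Fibroblast-like cells, at 46.1, 21.4, 63.5 and 0 CPM, and blood endothelial-like cells, at 27.0, 0, 17.6 and 24.6 CPM, were lower than pericytes in each library.

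**Figure D4:**
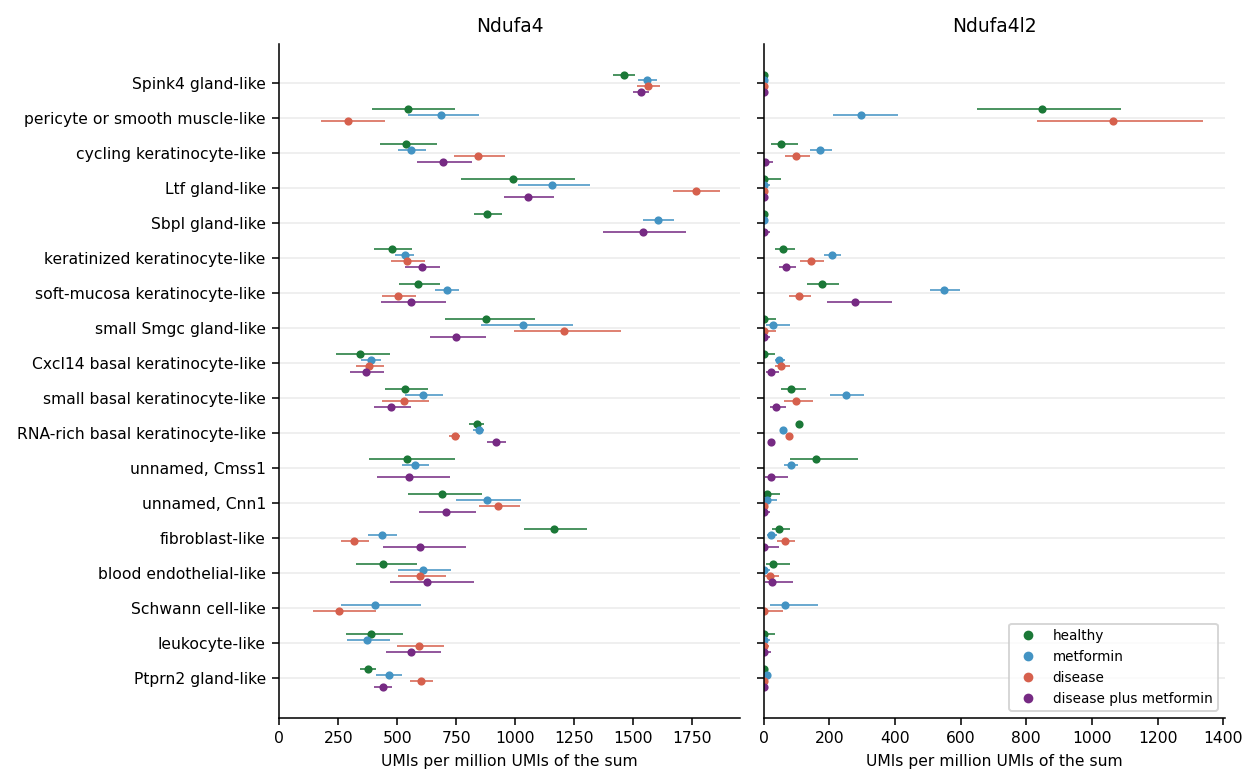
Levels of Ndufa4 (left) and Ndufa4l2 (right) in UMIs per 1000000 (x axis) by cell group (y axis), with 1 point per library of at least 10 cells and lines for the 95% counting interval. Ndufa4 reaches 1463 to 1566 in the Spink4 gland-like cluster, where Ndufa4l2 is at or near 0, and Ndufa4l2 is highest in pericyte or smooth muscle-like cells, at 298 to 1064.

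Between conditions, the summed level moved little in keratinocytes. In keratinocyte-like cells it was 9277 CPM in healthy, 10184 in metformin, 9299 in disease and 9955 in disease plus metformin gingiva. The log2 ratio was 0.13 (0.12 to 0.15) for metformin against healthy, 0.00 (-0.01 to 0.02) for disease against healthy, and 0.10 (0.08 to 0.12) for disease plus metformin against disease. Metformin thus went with a higher level in both pairs of libraries, by 1.10-fold and 1.07-fold, and disease with almost none. The gain was smaller when every cell was weighted equally, 0.02 in both pairs. Within the 6 keratinocyte-like clusters, the ratios ran from -0.03 to 0.25, from -0.02 to 0.08 and from -0.10 to 0.17 in the 3 comparisons. The intervals held 0 in 4, 4 and 2 of the 6.

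Single members stayed close to the sum. In metformin against healthy, 0 of 38 members were at least 1.5-fold higher and 0 lower, where 5.67% of 12052 genes were higher and 20.8% lower. The median was 0.13 for members and -0.21 for all genes. In disease against healthy the counts were 0 and 0, beside 7.25% and 6.17% of all genes. In disease plus metformin against disease they were 0 and 1, beside 4.01% and 13.4%, and the 1 member was Ndufa4l2. The members most apart in metformin against healthy were Ndufa4l2 (0.44), Ndufb11 (0.28) and Ndufa1 (0.26) on the higher side, and Ndufs1 (-0.43), Ndufa4 (-0.07) and Ndufa10 (-0.07) on the lower. In disease against healthy they were Ndufb11 (0.21), Ndufa12 (0.22) and Ndufv3 (0.18), and Ndufa3 (-0.31), Ndufa4l2 (-0.32) and Ndufa4 (-0.14). In disease plus metformin against disease they were Ndufb8 (0.28), Ndufa1 (0.27) and Ndufb4 (0.20), and Ndufa4l2 (-1.13), Ndufs1 (-0.36) and Ndufv3 (-0.13). Reads of Ndufb4 can be split with near-identical copies, which makes its level uncertain. Ndufa1 and Ndufs1 thus had the same sign in both pairs with metformin, Ndufs1 at 41.7, 31.1, 42.5 and 33.0 CPM in the 4 libraries, and Ndufa4l2 the opposite sign.

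Summed over the keratinocyte-like class, the mitochondrially encoded complex I genes went the other way. In keratinocyte-like cells they were at 9061 CPM in healthy, 5776 in metformin, 6982 in disease and 5533 in disease plus metformin gingiva. The log2 ratios were -0.65 (-0.67 to -0.63), -0.38 (-0.40 to -0.36) and -0.34 (-0.36 to -0.31) in the 3 comparisons. In metformin against healthy, the other nuclear complexes were near complex I, with log2 ratios of 0.13 for complex III, 0.16 for IV and 0.18 for V, and that of the TCA cycle list was -0.04. Complex I assembly factors were at -0.01 (-0.08 to 0.07) and complex II at 0.04 (-0.04 to 0.13). The 12 regulators of mitochondrial gene expression were at -0.36 (-0.45 to -0.26). The core, peripheral arm and membrane arm lists of complex I were at 0.09, 0.17 and 0.14. The RNA-rich basal cluster has the highest mitochondrial RNA of the 6 larger keratinocyte-like clusters. It held 74.5% of the keratinocyte-like UMIs in healthy and 58.1% in metformin gingiva. Its part in these ratios was not tested beyond leaving it out, which gave 0.10 for nuclear complex I. Within clusters, the share of UMIs from mitochondrial DNA went both ways. In healthy, metformin, disease and disease plus metformin gingiva it was 0.264%, 0.809%, 0.580% and 0.0753% in the keratinized cluster. In the RNA-rich cluster it was 4.85%, 4.03%, 4.04% and 4.22%.

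In gland-like cells the summed level was lowest in the healthy library. It was 9030 CPM in healthy, 11730 in metformin, 11017 in disease and 10450 in disease plus metformin gingiva. The log2 ratios were 0.38 (0.36 to 0.39) for metformin against healthy, 0.29 (0.27 to 0.31) for disease against healthy and -0.08 (-0.09 to -0.06) for disease plus metformin against disease. The first 2 comparisons share the healthy library. Keratinocyte markers in gland-like cells were also lowest there, at 352, 1550, 2365 and 728 CPM in the 4 libraries for the 24 genes, none of them at 0, and gland markers were highest there, at 291889, 210550, 206283 and 241128 CPM. Their part in the ratios was not tested. Genes in general were also shifted up against healthy. The median log2 ratio was 0.36 for members and 0.18 for all genes with metformin, and 0.33 and 0.17 in disease. In metformin against healthy, 37 of 37 measured members were above 0, but 2 were at least 1.5-fold higher and 0 lower, where 17% of all genes were higher and 4.56% lower. These were Ndufb2 and Ndufab1 (both 0.62), followed by Ndufv3 (0.55). Among the lowest were Ndufs1 (0.04) and Ndufv2 (0.16), which are both core subunits. In disease against healthy, 1 was higher, Ndufa12 (0.63), and 0 lower, beside 16% and 5.87% of all genes. Ndufab1 (0.54) and Ndufc2 (0.50) came next, and Ndufa3 (343 CPM in both libraries), Ndufa1 (0.04) and Ndufv1 (0.06) were lowest. In disease plus metformin against disease the counts were 0 and 0, beside 7.41% and 9.76%. Ndufb8 (0.21), Ndufv1 (0.09) and Ndufv2 (0.08) were highest there, and Ndufa11 (-0.32), Ndufc2 (-0.27) and Ndufa12 (-0.27) lowest.

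The libraries held different mixes of gland-like clusters. The Ptprn2 cluster, low in complex I, held 24.2% of gland-like UMIs in healthy, 10.2% in metformin, 22.6% in disease and 17.0% in disease plus metformin gingiva. The Sbpl cluster held 19.2%, 24.8%, 0% and 2.8%. Without the Ptprn2 cluster the metformin ratio was 0.23, and without the Sbpl cluster 0.25. Within the Spink4 cluster, the gland-like cluster with the most UMIs, the 3 ratios were 0.04 (0.02 to 0.06), 0.06 (0.04 to 0.08) and -0.08 (-0.10 to -0.06). Within the Sbpl cluster, the ratio of metformin against healthy was 0.89 (0.85 to 0.93). The median was 0.89 for its 37 measured members and 0.79 for all genes, and gland markers were at 273422 against 570701 CPM. The same ratio was 0.26 (0.19 to 0.33) in the Ptprn2 cluster and 0.23 (0.11 to 0.36) in the small Smgc cluster.

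The Ptprn2 gland-like cluster itself differed between conditions more than any of the 6 larger keratinocyte-like clusters. Its log2 ratio was 0.65 (0.59 to 0.70) in disease against healthy, with 37 of 37 measured members above 0. At least 1.5-fold higher were 21 of the 37, where 14.8% of all genes were. In disease plus metformin against disease the ratio was -0.46 (-0.52 to -0.41), with 37 of 37 below 0 and 12 at least 1.5-fold lower, where 10.2% of all genes were. The 2 comparisons share the disease library, the highest in this cluster at 6035 CPM. In disease against healthy, nuclear complexes III, IV and V were at 0.64, 0.66 and 0.52 in the same cells, the mitochondrially encoded complex I genes at -0.36 and complex I assembly factors at 0.11 (-0.13 to 0.35). Keratinocyte markers were low in both libraries, at 331 and 307 CPM for the list of 24 genes (3930 CPM in metformin), and gland markers were at 172706 and 192929 CPM. The median depth was 7452 UMIs per cell in healthy and 10310 in disease, and its part in the ratio was not tested.

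The small Smgc gland-like cluster had the same 2 directions. Its ratio was 0.54 (0.41 to 0.66) in disease against healthy, and 15 of the 32 members measured there were higher by 1.5-fold or more, where 29.2% of all genes were. In disease plus metformin against disease it was -0.52 (-0.62 to -0.42), and 15 of 36 were lower by 1.5-fold or more, where 23% were. Its mitochondrially encoded complex I genes were at -0.70 and 0.81 in these comparisons, against the direction of the nuclear ones. In the disease library, 49 cells made up this cluster and 1 barcode held 16.4% of their complex I UMIs. Of the stroma, blood endothelial-like cells were at 0.27 (0.13 to 0.41), 0.32 (0.18 to 0.45) and -0.06 (-0.21 to 0.07), with 27.2% of the healthy complex I UMIs in 1 barcode. Leukocyte-like cells were at -0.11 (-0.27 to 0.04), 0.23 (0.09 to 0.37) and 0.02 (-0.10 to 0.14).

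**Figure D5:**
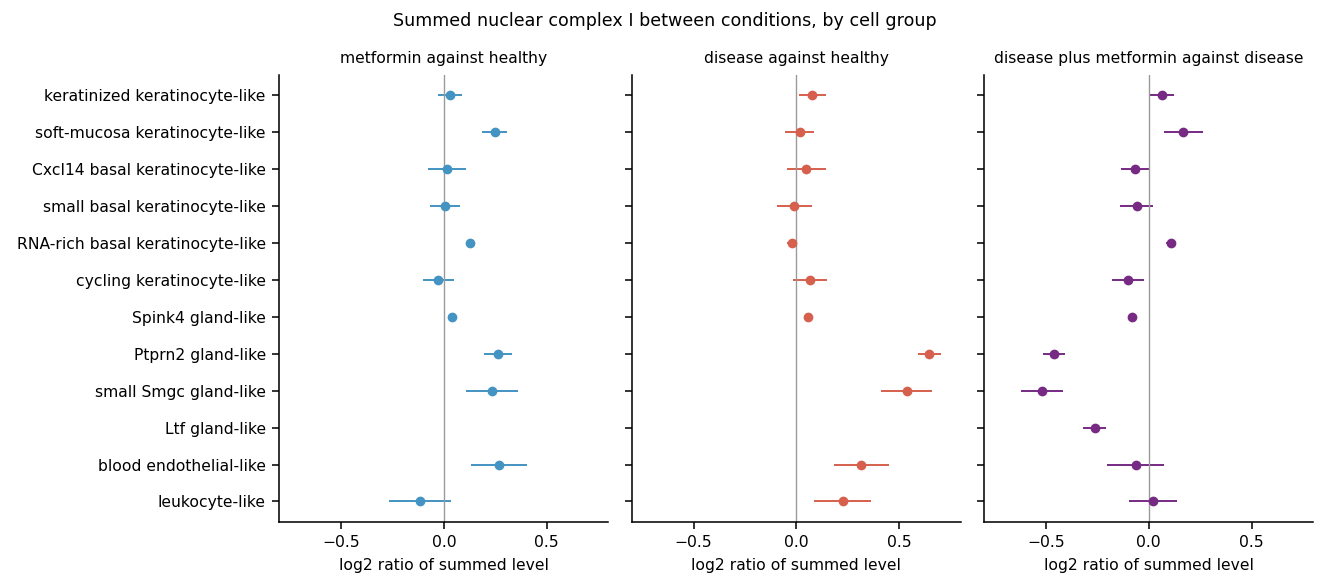
Log2 ratio of the summed level of the measured complex I subunits (x axis) by cell group (y axis) in 3 comparisons of 1 library with 1 library, with lines for the 95% counting interval. Keratinocyte-like points lie between -0.10 and 0.25, and the Ptprn2 gland-like cluster lies at 0.65 for disease against healthy and at -0.46 for disease plus metformin against disease.

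Ndufa4l2 was the member with the most uneven response. In metformin against healthy it was higher in 5 of 6 keratinocyte-like clusters: at 209 against 59.5 CPM in the keratinized cluster (log2 ratio 1.81, 1.12 to 2.59), at 550 against 177 CPM in soft mucosa (1.64, 1.23 to 2.07), and at 250 against 83.7 CPM in the small basal cluster (1.58, 0.88 to 2.34). In the RNA-rich basal cluster it was lower, at 57.9 against 109 CPM (-0.91, -1.12 to -0.69), and that cluster held most of the UMIs of the class, so the class ratio of 0.44 hides opposite values. Several healthy values rest on few UMIs of Ndufa4l2: 18 in 7 cells of the keratinized cluster, 8 in cycling cells and 0 in the Cxcl14 basal cluster. In the metformin library, 1 barcode held 34.4% of these UMIs in the small basal cluster and 28.2% in the RNA-rich cluster. In disease plus metformin against disease, Ndufa4l2 was lower in 5 of 6 clusters, among them the RNA-rich basal cluster, at 20.6 against 77.7 CPM (-1.92, -2.39 to -1.48), and the keratinized cluster, at 68.9 against 143 CPM (-1.05, -1.74 to -0.39). In soft mucosa it was higher, at 278 against 107 CPM (1.38, 0.68 to 2.08), where 1 barcode held 51.2% of the disease UMIs of Ndufa4l2. In the keratinized cluster 1 barcode held 31.1% of them. The disease plus metformin library held 1 UMI of Ndufa4l2 in cycling cells, 6 in the Cxcl14 basal cluster and 12 in the small basal cluster. Metformin thus went with more Ndufa4l2 in most clusters of undiseased gingiva and with less in most clusters of diseased gingiva, between single libraries, and whether these 2 responses differ beyond the spread between mice was not tested.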

How the data were processed

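Excised maxillary gingiva was digested to single cells and passed through a 40 µm filter, per the labels' protocols. The authors deposited raw UMI counts per gene and barcode, made with bcl2fastq and Cell Ranger 7.0.1 on mm10, per the submitters' processing notes. The members and gene lists were chosen with earlier results of these data known. A barcode was kept from 200 detected genes upward and up to a mitochondrial share of 20% (scanpy 1.11.5 under Python 3.11.15), and doublet calls were removed. Clusters came from 2000 variable genes without respiratory chain genes, 30 components, 15 neighbours and Leiden resolution 1 (leidenalg 0.10.2), and were named from marker lists; clusters whose leading genes fitted no list stayed unnamed.

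Counts were summed per class and library. Condition ratios have exact conditional binomial 95% intervals and levels exact Poisson ones. A gene counted as measured from 20 UMIs over both libraries. Class contrasts used edgeR 4.0.16 (R 4.3.3) with TMM factors, filterByExpr and a library term, called at an adjusted p of 0.05, with DESeq2 1.42.0 as an alternative. The scripts were tested on simulated data. Genes named are, per condition comparison, the 3 members with the highest and the 3 with the lowest interval bound nearest 0 (at least 50 UMIs), per class contrast the 4 highest and 4 lowest called, the core genes, and Ndufab1, Ndufa4 and Ndufa4l2. The single values of 1 member are not reported here, although it enters the counts and sums. Others were named after their values were seen. Alternatives that leave out a cluster, or leave abundant genes out of the totals of the class contrasts, were chosen after seeing the data.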

Additional observations from a re-analysis of the deposited data

Results flagged for a closer look

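Ndufa4l2 in keratinocyte-like cells stood out because the ratio with metformin had opposite signs in undiseased and diseased gingiva. It was 0.44 (0.29 to 0.59) for metformin against healthy, at 140 against 103 CPM. It was -1.13 (-1.41 to -0.85) for disease plus metformin against disease, at 37.7 against 82.2 CPM. The difference between these ratios was not tested, since each group is 1 library.

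Ndufa11, an accessory subunit of the membrane arm, stood out for the same reason in gland-like cells. Its log2 ratio was 0.35 (0.25 to 0.46) for metformin against healthy, at 336 against 263 CPM. It was -0.32 (-0.42 to -0.23) for disease plus metformin against disease, at 291 against 364 CPM. This difference was not tested either, and neither ratio reached 1.5-fold.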

How the results depend on the processing

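Of the summed ratios under alternatives, 36 moved and 21 did not, and disease against healthy in keratinocyte-like cells, near 0, took either sign. In keratinocyte-like cells, metformin against healthy (0.13) was 0.19 with no mitochondrial limit, 0.16 in barcodes with Malat1 and mitochondrial UMIs, 0.023 with every cell weighted equally, 0.20 without mitochondrial, ribosomal protein and the top 50 genes, and 0.10 without the RNA-rich cluster. Disease against healthy (0.00) was 0.066 with no limit, 0.037 with equal weights, -0.047 without those abundant genes, 0.030 with classes from each cell's own markers and 0.049 without the RNA-rich cluster. Disease plus metformin against disease (0.10) was 0.078, 0.021, 0.18, 0.049 and 0.047 under the same 5. In gland-like cells, metformin against healthy (0.38) was 0.40 with no limit, 0.33 with equal weights, 0.22 without abundant genes, 0.41 at Leiden resolution 2, 0.35 with own markers, 0.40 with respiratory genes in the clustering, 0.23 without the Ptprn2 cluster and 0.25 without the Sbpl cluster. Disease against healthy (0.29) was 0.36, 0.40, 0.14, 0.37, 0.31, 0.35, 0.22 and 0.21 under the same 8. Disease plus metformin against disease (-0.08) was -0.10 with no limit, -0.23 with equal weights, -0.045 without abundant genes, -0.11 at resolution 2 and -0.093 without the Ptprn2 cluster.

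Members at least 1.5-fold apart were few, so that a lower fold limit or 1 cluster moved their number. In keratinocyte-like cells the lower limit gave 2, 1 and 2 in the 3 comparisons, and leaving out the RNA-rich cluster gave 1 for metformin against healthy and 0 for disease plus metformin against disease. In gland-like cells the lower limit gave 23, 20 and 1. Metformin against healthy gave 0 without abundant genes, without the Ptprn2 cluster and without the Sbpl cluster. Disease against healthy gave 2 with a minimum of 1 UMI, 0 without abundant genes and 0 without the Sbpl cluster, and disease plus metformin against disease gave 1 with that minimum.

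The class contrasts moved with the scale, the clustering, the cells kept and the RNA-rich cluster. For gland-like against keratinocyte-like cells, the higher members numbered 7 with no factor, 24 in barcodes with Malat1 and mitochondrial UMIs, and 3 without the RNA-rich cluster. The lower ones numbered 13 with no factor, 8 with no filter, 12 with totals without abundant genes, and 28 without the RNA-rich cluster. For differentiated against basal cells, the higher members numbered 8 with no factor, 2 at resolution 2, 2 with respiratory genes in the clustering, 22 in barcodes with Malat1 and mitochondrial UMIs, and 3 without the RNA-rich cluster. The lower ones numbered 6 with no factor, 3 with totals without abundant genes, 28 at resolution 2, 6 with respiratory genes in the clustering and 9 without the RNA-rich cluster. For cycling against basal cells, the higher members numbered 22, 6, 5, 3 and 6 under the 5 settings given for higher members of the differentiated layers. The lower ones numbered 3 with no factor, 2 with totals without abundant genes, 0 in barcodes with Malat1 and mitochondrial UMIs, and 0 to 1 when each library was left out. The cause of these shifts was not tested. No paired analysis was possible because each condition is 1 library. In the class contrasts the library term served as the block, and without it (no replicate block) the members were 14 higher and 5 lower, 35 and 0, and 34 and 1.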
